A study of Mus musculus with 10 samples.

Results

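A set of 10 transcripts that mark lymphocytes and plasma cells was followed through livers of wild-type and Etnppl knockout mice. They are immunoglobulin chains (Igkc, Ighm and Jchain), B cell surface proteins (Cd79a and Ms4a1), T cell receptor subunits (Cd3e and Cd3g), products of natural killer and cytotoxic T cells (Nkg7 and Gzma) and a chemokine (Ccl5). The genes were chosen by symbol as immunoglobulin chains and lymphocyte markers, and all 10 members were found among the 47702 genes of the table. Of the 10, 8 reached a mean of 0.5 FPKM over all libraries and were tested among the 12247 genes that did so. Ms4a1 (mean 0.307 FPKM) and Gzma (mean 0.461 FPKM) lay under that minimum, and their values come from a fit with no minimum. FPKM stands for fragments divided by transcript length and by the library's total, a level that can be compared between genes.

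B cells carry a membrane antibody coupled to a signalling pair to which Cd79a belongs. Plasma cells, their descendants, stop displaying it and secrete antibody instead, at transcript levels far above those of resting B cells, and Jchain links the subunits of secreted IgM and IgA. T cells signal through the CD3 subunits, and natural killer cells and cytotoxic T cells kill with granule proteins such as granzyme A. The liver holds resident natural killer and T cells along its sinusoids, hepatocytes move antibody of the IgA class into bile, and most liver RNA comes from hepatocytes.

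Poly-A RNA was measured in snap-frozen livers of female mice on a chow diet for 20 weeks, in 5 libraries of a whole-body Etnppl knockout (KO) and 5 of wild type (WT). Both genotypes shared sex, diet and tissue, and the sources used here named neither the strain nor the targeted exons. Whether each library came from its own animal is not in the labels, and the p-values therefore reflect spread between samples that may be technical. Etnppl, which encodes an enzyme that degrades phosphoethanolamine, stood at 60.27, 69.73, 108.39, 47.24 and 43.32 FPKM in WT 1 to 5 and at 26.43, 21.97, 18.88, 25.74 and 17.72 FPKM in KO 1 to 5. Every KO library was below every WT library, and the transcript was not absent from any (limma adjusted p = 0.00504). Hepatocyte markers marked the tissue as labelled, with a summed level from 65230 to 71180 FPKM in WT and from 70880 to 78520 FPKM in KO.

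None of the 8 tested members passed the threshold of an adjusted p under 0.05 (limma with Benjamini-Hochberg adjustment over all genes tested), against 8.54% of all genes. At an unadjusted p under 0.05, 3 of the 8 were lower in KO (Igkc, Jchain and Nkg7), against 13.6% of all genes, and 0 were higher, against 11%. The groups overlapped for all 10 members, whereas they did not overlap for 8.87% of genes tested. The median log2 difference of the 8 was -0.31, and 6 of them were below 0. Over all genes tested the median was -0.02, with 54.3% below 0. The members were chosen with earlier results of these data known, so these comparisons with all genes are a description. All log2 differences are KO minus WT on the log2(FPKM + 0.5) scale, which understates changes of genes near or below 0.5 FPKM. In bulk tissue, fewer cells of a type and less RNA per cell cannot be told apart.

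**Figure D1:**
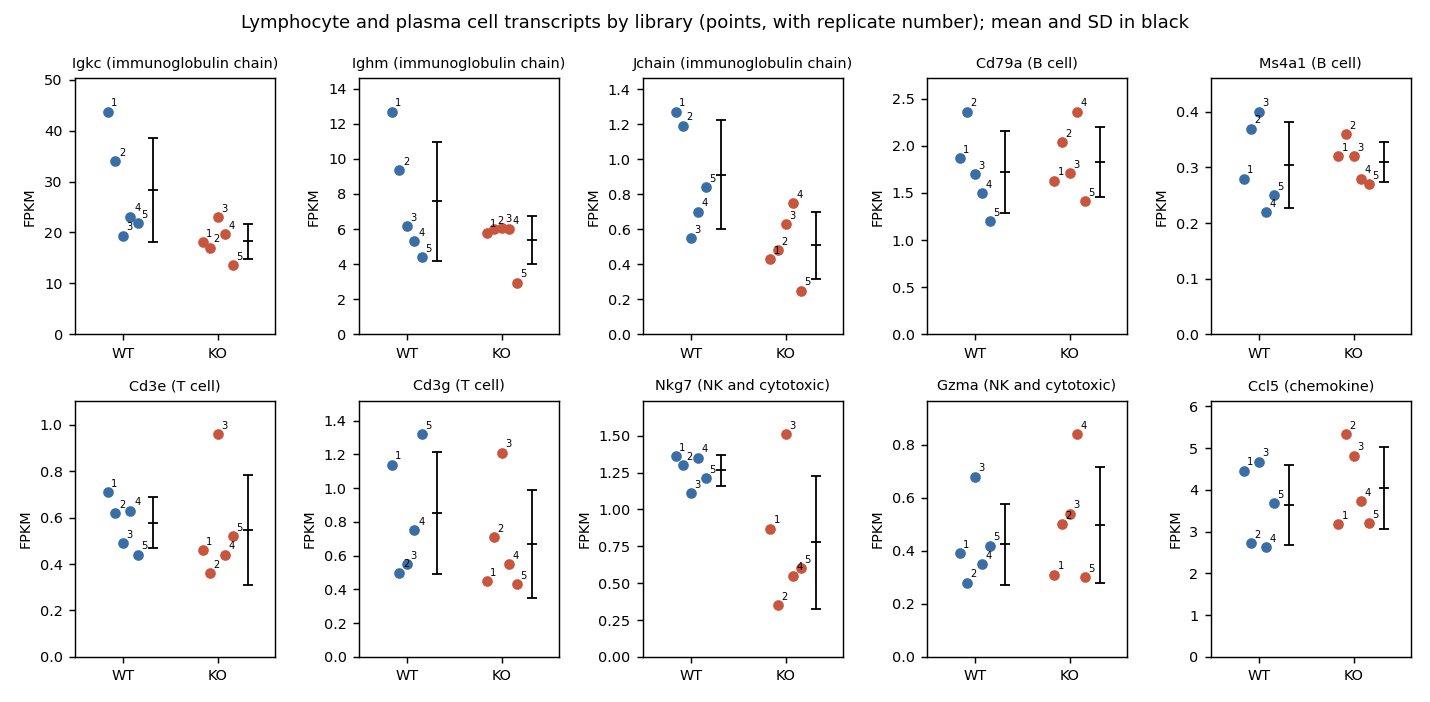
FPKM (vertical axis, from 0) of each member in the 5 WT (blue) and 5 KO (red) libraries, numbered by replicate, with the mean and SD in black beside the points. The Igkc, Ighm and Jchain points of WT 1 and WT 2 lie highest, and KO 3 lies highest in the Cd3e and Nkg7 panels.

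Igkc, the constant region of the kappa light chain carried by most mouse antibodies, was the most abundant member. It is a single exon on chromosome 6, from 70726435 to 70726966 on the plus strand (GRCm38, the assembly of mm10). It stood at 43.67, 33.99, 19.38, 23.06 and 21.77 FPKM in WT 1 to 5 and at 18.12, 17.0, 23.0, 19.66 and 13.53 FPKM in KO 1 to 5. WT 1 and WT 2 lay above every other library, the other WT libraries lay within or near the KO range, and 3 of the 5 KO libraries were under the lowest WT library. The mean was 28.4 ± 10.2 FPKM (SD, n = 5) in WT and 18.3 ± 3.48 FPKM (SD, n = 5) in KO. This was a log2 difference of -0.58 (SE 0.22, 95% interval -1.06 to -0.09, limma adjusted p = 0.139), and an exact permutation test, two-sided, returned p = 0.0476 for this gene alone and 0.185 after adjustment over the 10 members. Without WT 1 the difference was -0.41 (limma adjusted p = 0.207), and without KO 5 it was -0.48 (limma adjusted p = 0.248).

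Jchain, the joining chain of polymeric IgM and IgA (chromosome 5, 88519809 to 88527891, minus strand), stood at 1.27, 1.19, 0.55, 0.7 and 0.84 FPKM in WT 1 to 5 and at 0.43, 0.48, 0.63, 0.75 and 0.25 FPKM in KO 1 to 5. The same 2 WT libraries were highest, KO 5 was lowest, and KO 3 and KO 4 lay within the WT range. Its log2 difference was -0.48 with an SE of 0.18 (limma adjusted p = 0.124, exact permutation p = 0.0476). It was -0.38 without KO 5 (limma adjusted p = 0.238).

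Ighm, the heavy chain of IgM (chromosome 12, 113418558 to 113422730, minus strand), is made both as the membrane receptor of B cells and as a secreted antibody, and FPKM per gene does not separate these forms. It stood at 12.68, 9.34, 6.17, 5.32 and 4.39 FPKM in WT 1 to 5 and at 5.79, 6.01, 6.09, 5.98 and 2.94 FPKM in KO 1 to 5. The KO libraries were close to one another apart from KO 5, and all but KO 5 lay within the WT range. Ighm differed by -0.41 on the log2 scale (SE 0.28, 95% interval -1.03 to 0.21, limma adjusted p = 0.413), and without WT 1 it was -0.21 (limma adjusted p = 0.668).

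Of the 13 constant chain genes with Jchain that were above 0 in any library, 10 were tested, and 2 of them fell in KO, both antibody chains outside the 10 members: Iglc1 and Ighg1. Of all genes tested, 8.54% passed in either direction. Iglc1, 1 of the constant regions of the lambda light chain, stood at 1.61, 1.06, 1.17, 1.52 and 0.84 FPKM in WT 1 to 5 and at 0.48, 0.6, 0.43, 0.48 and 0.0 FPKM in KO 1 to 5. The groups did not overlap, and Iglc1 differed by -0.98 on the log2 scale (SE 0.21, limma adjusted p = 0.0176). Without KO 5, where no Iglc1 was recorded, it was -0.79 (limma adjusted p = 0.0159), and with a pseudocount of 0.1 in place of 0.5 it was -1.65 and missed the threshold (limma adjusted p = 0.0531).

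Neither of the other lambda constant genes above 0, Iglc2 and Iglc3, passed. Iglc2 stood at 1.03, 0.98, 0.47, 0.82 and 0.96 FPKM in WT 1 to 5 and at 0.9, 0.47, 1.26, 2.36 and 0.27 FPKM in KO 1 to 5. Its log2 difference was 0.06 with an SE of 0.31 (limma adjusted p = 0.926), and that of Iglc3 was 0.05 (SE 0.29, limma adjusted p = 0.935). Both signs turned when single libraries were left out, and the differences between the lambda genes were not tested. The start of each coding region on the minus strand of chromosome 16 is shown because reads can pass between near-identical genes. Each is 120 bases from the GENCODE M21 transcripts (GRCm38), written 5′ to 3′ with the bases that differ from Iglc1 in capitals.

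Iglc1, chr16:19061952-19062071: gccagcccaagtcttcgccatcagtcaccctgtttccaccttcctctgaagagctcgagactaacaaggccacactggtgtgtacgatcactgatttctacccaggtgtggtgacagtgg

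Iglc2, chr16:19198733-19198852: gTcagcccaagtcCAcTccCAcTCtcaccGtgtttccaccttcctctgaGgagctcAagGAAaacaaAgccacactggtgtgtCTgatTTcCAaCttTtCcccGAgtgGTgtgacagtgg

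Iglc3, chr16:19065562-19065681: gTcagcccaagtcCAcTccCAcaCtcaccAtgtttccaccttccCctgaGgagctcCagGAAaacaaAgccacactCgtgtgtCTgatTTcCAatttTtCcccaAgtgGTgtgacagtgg

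In these windows Iglc2 differed from Iglc1 at 28 bases and Iglc3 at 27. Over the whole coding region Iglc1 shared 74.8% of 313 aligned bases with Iglc2 and 75.4% with Iglc3, while Iglc2 and Iglc3 shared 96.5% of 314. The sources used here do not say how fragments were divided between Iglc2 and Iglc3, so their separate levels are uncertain, and the lower identity of Iglc1 sets it apart from that pair.

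Ighg1, the heavy chain of IgG1 (chromosome 12, 113325240 to 113330523, minus strand), stood at 0.68, 1.41, 1.23, 1.23 and 0.95 FPKM in WT 1 to 5 and at 0.65, 0.34, 0.62, 0.17 and 0.63 FPKM in KO 1 to 5. The groups did not overlap, though WT 1 and KO 1 were close to each other. Ighg1 differed by -0.72 on the log2 scale (SE 0.18, limma adjusted p = 0.0354). The call was lost without any 1 of 6 libraries (WT 2 to WT 5, KO 2 and KO 4, adjusted p from 0.0592 to 0.08), with no minimum on the mean (0.0658) and with the replicate number as a block (0.0942). IgG heavy chains are similar in sequence and their reads may be shared.

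Igha, the heavy chain of IgA, had the largest SE on the log2 scale of the constant chains tested. It stood at 3.75, 6.06, 0.6, 5.84 and 2.73 FPKM in WT 1 to 5 and at 1.04, 0.14, 2.55, 2.24 and 1.34 FPKM in KO 1 to 5. WT 3 lay among the KO libraries, and the log2 difference of -1.07 (SE 0.55) did not pass (limma adjusted p = 0.26). Ighd, the IgD chain of unswitched B cells, gave 0.09 (SE 0.14, limma adjusted p = 0.732), and Ighg2b gave -0.16 (SE 0.38, limma adjusted p = 0.838). Ighg2c, Ighg3 and Ighe were under the minimum mean, and Iglc4 was listed at 0 in all libraries.

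**Figure D2:**
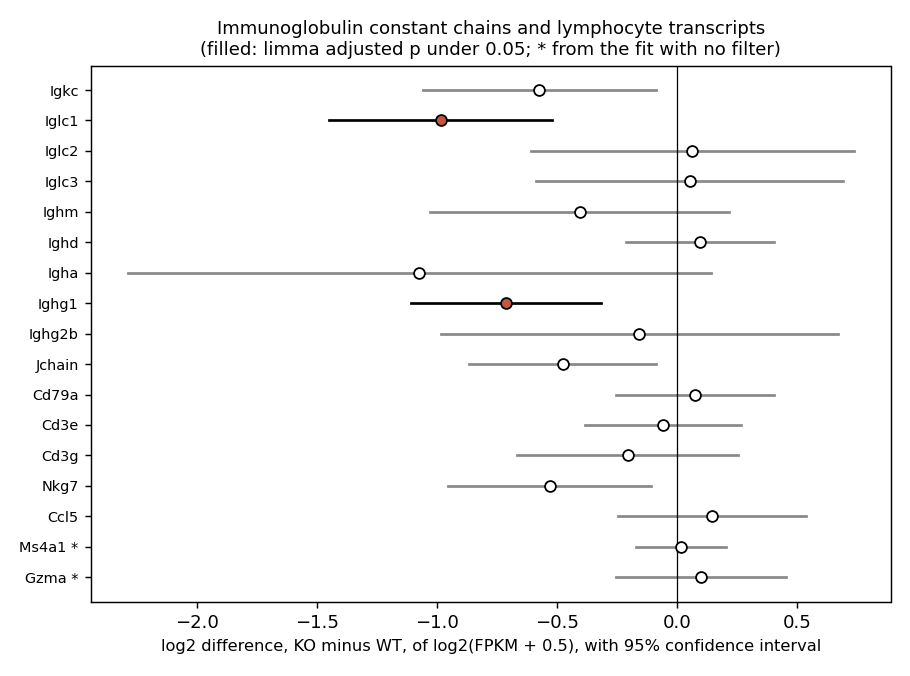
Log2 difference (KO minus WT, horizontal axis) with its 95% confidence interval for the tested constant chains and the 10 members. Filled points passed an adjusted p under 0.05, and these are Iglc1 and Ighg1, while none of the 10 members is filled.

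Antibody variable segments, which encode the antigen-binding ends and differ between B cell clones, were read as a further measure after the constant chain values had been seen. Of 348 variable segment genes, 125 were above 0 in at least 1 library, 34 of these in a single library, and 0 in all 10. The number above 0 was 57, 53, 30, 47 and 40 in WT 1 to 5 and 32, 32, 35, 32 and 24 in KO 1 to 5. All WT libraries but WT 3 lay above every KO library, and WT 3 lay within the KO range. The mean was 45.4 ± 10.7 (SD, n = 5) in WT and 31 ± 4.12 (SD, n = 5) in KO (exact permutation p = 0.04, and 0.12 after adjustment over 13 antibody measures). The most abundant segments were Iglv1 (1.68 ± 1.56 FPKM in WT and 0.798 ± 0.801 FPKM in KO), Igkv5-39 (1.29 ± 1.58 and 0.83 ± 0.849 FPKM) and Igkv5-43 (1.09 ± 0.677 and 0.592 ± 0.929 FPKM, SD, n = 5 each), and none of these passed (limma adjusted p = 0.64, 0.879 and 0.367).

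Kappa variable segments above 0 numbered 33, 26, 21, 31 and 23 in WT 1 to 5 and 20, 19, 19, 17 and 20 in KO 1 to 5, with no overlap. The exact permutation test gave p = 0.0079, the smallest that 5 against 5 libraries allow, and 0.1 after adjustment over the 13 measures. Segments with at least 0.5 FPKM, a count added after seeing the data, averaged 13.2 ± 4.92 in WT and 7.2 ± 2.59 in KO for kappa (SD, n = 5 each, exact permutation p = 0.024), and 20.6 ± 6.8 in WT and 10.2 ± 2.59 in KO for all classes (SD, n = 5 each, exact permutation p = 0.0079). The p-values of this count were not adjusted. Even the lowest value above 0 of a segment could exceed 0.5 FPKM, as for Igkv5-39 (0.72 FPKM in WT 3).

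Whether a segment is above 0 depends on depth. A relative depth was estimated from the step size of FPKM in 108 low genes. Its mean was 1.05 for WT and 0.955 for KO libraries (exact permutation p = 0.048), and its part in the segment counts was not tested. Leaving out any 1 library other than WT 3 took the exact p for all segments above 0.05 (from 0.063 to 0.079). The kappa count gave an exact p of 0.016 in every such repeat, with differences from -9.25 to -6.25 segments. That p is the smallest possible with 1 library left out. Groups that do not overlap must give it, so these repeats add no further test of the kappa count.

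**Figure D3:**
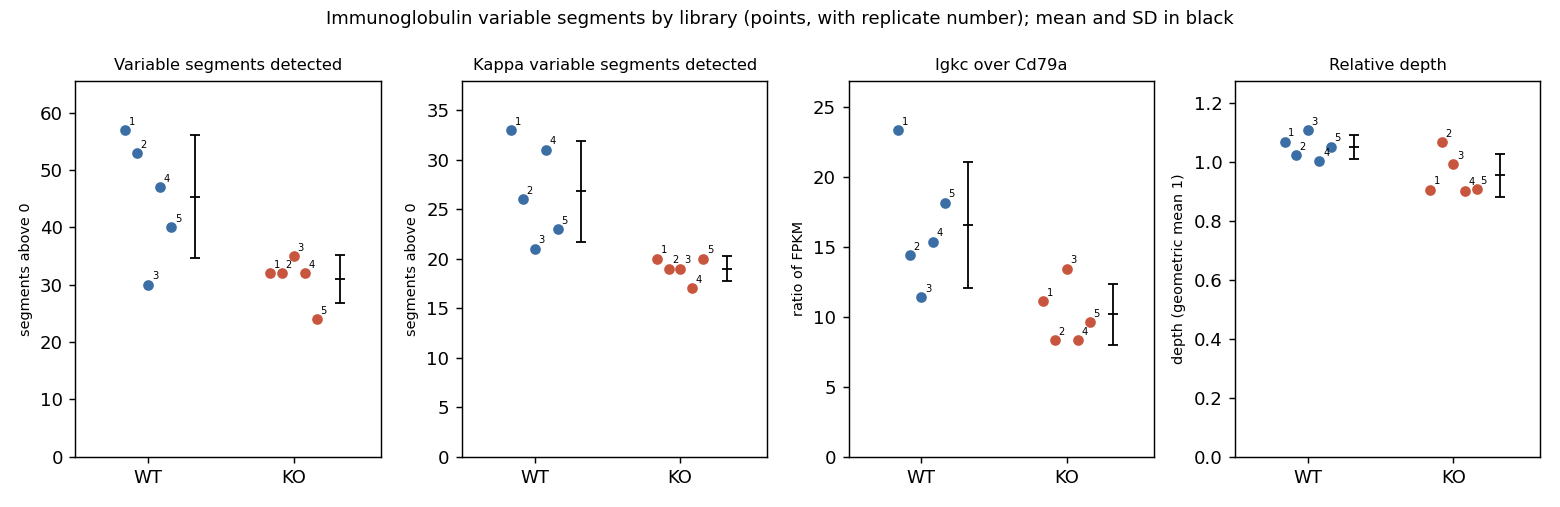
From left to right, the number of variable segments above 0, the number of kappa variable segments above 0, the ratio of Igkc to Cd79a in FPKM, and relative depth, for each library numbered by replicate (WT blue, KO red; mean and SD in black). The kappa counts of the KO libraries, 17 to 20, lie under the lowest WT count of 21.

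Neither B cell surface transcript passed, and both had nearly equal means in the genotypes. Cd79a, the alpha chain of the signalling pair of the B cell receptor (chromosome 7, 24897381 to 24902197, plus strand), stood at 1.87, 2.36, 1.7, 1.5 and 1.2 FPKM in WT 1 to 5 and at 1.63, 2.04, 1.71, 2.36 and 1.41 FPKM in KO 1 to 5. The ranges lay almost on top of each other. Cd79a differed by 0.07 on the log2 scale (SE 0.15, limma adjusted p = 0.812), with a 95% interval from -0.26 to 0.40, so a difference within that interval remains possible.

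Ms4a1, which encodes CD20, a membrane protein of mature B cells that plasma cells lose (chromosome 19, 11249675 to 11266241, minus strand), stood at 0.28, 0.37, 0.4, 0.22 and 0.25 FPKM in WT 1 to 5 and at 0.32, 0.36, 0.32, 0.28 and 0.27 FPKM in KO 1 to 5. All 5 KO libraries lay within the WT range. In the fit with no minimum the log2 difference was 0.01 with an SE of 0.09 (limma adjusted p = 0.948).

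The ratio of Igkc to Cd79a sets antibody transcript against a B cell transcript of the same library, so library scaling cancels. It was 23.4, 14.4, 11.4, 15.4 and 18.1 in WT 1 to 5 and 11.1, 8.33, 13.4, 8.33 and 9.6 in KO 1 to 5. It averaged 16.5 ± 4.51 in WT and 10.2 ± 2.17 in KO (SD, n = 5 each). KO 3 lay within the WT range, and the other KO libraries lay under it. An exact permutation p of 0.016 became 0.1 over the 13 antibody measures, a set put together with the values known.

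**Figure D4:**
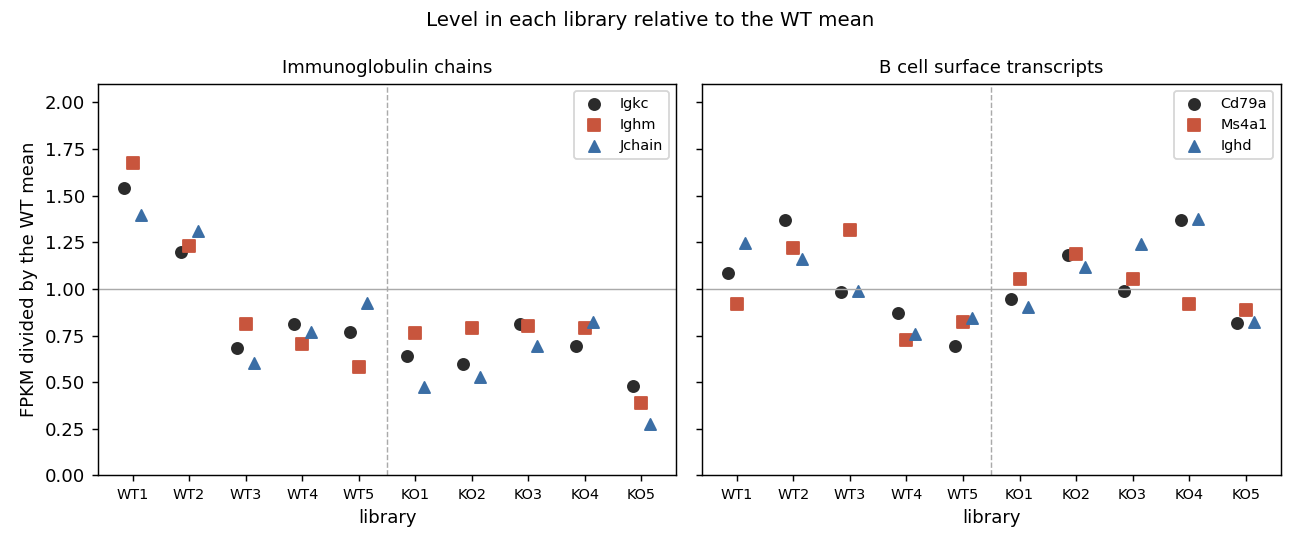
FPKM of Igkc, Ighm and Jchain (left) and of Cd79a, Ms4a1 and Ighd (right) divided by the WT mean of each gene (vertical axis), for each library on the horizontal axis. On the left WT 1 and WT 2 stand highest and KO 5 lowest for all 3 chains, and on the right both genotypes lie on either side of 1.

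Across the B cell list, 9 of 20 genes were tested, and 1 rose and 0 fell, while 8.54% of all genes tested passed. The median log2 difference of the 9 was 0.02. The 1 that rose was Ly6d, a surface protein of early B cells and of epithelia, which went from 9.21 ± 2.83 to 31.1 ± 5.34 FPKM (SD, n = 5 each, log2 difference 1.74, SE 0.19, limma adjusted p = 0.000955). Its level was above that of every other B cell marker on the list, with Cd79b at 1.11 FPKM over all libraries. Bank1 (-0.33, limma adjusted p = 0.22), Cd37 (-0.22, limma adjusted p = 0.28) and Cd22 (0.25, limma adjusted p = 0.52) had the next smallest p and did not pass. In the plasma cell list 4 of 11 genes were tested, and 0 passed. The transcription factors Prdm1 and Irf4 were at means of 0.139 and 0.081 FPKM and Tnfrsf17 was listed at 0 in all libraries. Xbp1 (115.4 ± 10.8 FPKM in WT and 97.6 ± 11 FPKM in KO, SD, n = 5 each, limma adjusted p = 0.103) and Sdc1 are on the list but are also made by hepatocytes. Xbp1 passed without WT 3 (limma adjusted p = 0.045) or without KO 3 (0.0462). Fkbp11, a chaperone of secretory cells, had the opposite sign, at 5.33 ± 0.632 FPKM in WT and 6.52 ± 1.1 FPKM in KO (SD, n = 5 each, log2 difference 0.26, unadjusted p = 0.0486, limma adjusted p = 0.2), with 4 of the 5 KO libraries above the highest WT library.

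Both T cell transcripts were low. Cd3e, the epsilon chain of the CD3 complex (chromosome 9, 44998740 to 45009627, minus strand), stood at 0.71, 0.62, 0.49, 0.63 and 0.44 FPKM in WT 1 to 5 and at 0.46, 0.36, 0.96, 0.44 and 0.52 FPKM in KO 1 to 5. KO 3 was above every other library, and the remaining KO values lay in or near the lower part of the WT range. Cd3e differed by -0.06 on the log2 scale (SE 0.15, limma adjusted p = 0.844), and with single libraries left out it ran from -0.19 without KO 3 (limma adjusted p = 0.372) to 0.00438 without KO 2 (0.992). An exon of Cd3e overlaps an antisense gene, and without a stated strand setting their reads cannot be told apart.

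Cd3g, the gamma chain of the same complex (chromosome 9, 44969572 to 44980431, minus strand), stood at 1.14, 0.5, 0.55, 0.75 and 1.32 FPKM in WT 1 to 5 and at 0.45, 0.71, 1.21, 0.55 and 0.43 FPKM in KO 1 to 5. WT 5, KO 3 and WT 1 were the high libraries, and the ranges overlapped. For Cd3g the log2 difference was -0.21 (SE 0.21, 95% interval -0.67 to 0.25, limma adjusted p = 0.596), and with single libraries left out it ran from -0.35 without KO 3 (limma adjusted p = 0.294) to -0.09 without WT 5 (limma adjusted p = 0.849). The Cd3e and Cd3g genes span 40056 bases together.

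Of 31 T cell genes 10 were tested, and 0 passed. Their median log2 difference was -0.19, and 7 were below 0, against 54.3% of all genes tested. Trbc2, a constant region of the T cell receptor beta chain, averaged 1.78 ± 0.545 FPKM in WT and 1 ± 0.339 FPKM in KO (SD, n = 5 each). Its groups did not overlap, and its log2 difference of -0.61 (SE 0.20) missed the threshold (limma adjusted p = 0.0798). Trbc1, its neighbour in the same locus with a similar sequence, gave -0.50 (limma adjusted p = 0.215). Tcf7, a transcription factor of naive T cells, gave -0.45 (SE 0.13, limma adjusted p = 0.0518). It passed under median-of-ratios scaling (limma adjusted p = 0.0489) and with library weights (0.0436), and reached 0.0123 when the highest KO library, KO 4, was left out. Thy1 gave -0.18 (limma adjusted p = 0.28). The tested genes above 0 were Trac, Cd2 and Lck. Trac, the constant region of the T cell receptor alpha chain, averaged 1.01 ± 0.789 FPKM in WT and 1 ± 0.473 FPKM in KO (SD, n = 5 each, log2 difference 0.06, limma adjusted p = 0.932). Cd2 gave 0.13 (limma adjusted p = 0.639) and Lck gave 0.06 (limma adjusted p = 0.895).

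Nkg7, a granule membrane protein of natural killer cells and cytotoxic T cells (chromosome 7, 43437073 to 43438249, plus strand), had the most uneven spread among the members. It stood at 1.36, 1.3, 1.11, 1.35 and 1.21 FPKM in WT 1 to 5 and at 0.87, 0.35, 1.51, 0.55 and 0.6 FPKM in KO 1 to 5. All KO libraries but KO 3 were under the lowest WT library, and KO 3 was above the highest WT library. Nkg7 differed by -0.53 on the log2 scale (SE 0.19, 95% interval -0.95 to -0.11, limma adjusted p = 0.116, exact permutation p = 0.0556). Without KO 3 it was -0.71 and passed (limma adjusted p = 0.0165), the single case among the members and the settings tried in which a member passed. Markers of another tissue, pancreatic acinar cells, were higher in KO when summed without Cela1, with no overlap between the genotypes. That sum was 0.54, 0.38, 1.39, 0.24 and 0.35 FPKM in KO 1 to 5 and 0.05 to 0.19 FPKM in WT. Cela1 made up 85.1% of the summed list and was its 1 tested gene. It did not pass (log2 difference -0.13, limma adjusted p = 0.638). With Cela1 the sums overlapped, from 1.49 to 2.88 FPKM in WT and from 1.9 to 3.18 FPKM in KO. KO 3 was highest in both the sum without Cela1 and Nkg7, and the part of these traces in the Nkg7 values was not tested.

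Gzma, which encodes granzyme A, a granule protease (chromosome 13, 113093825 to 113100981, minus strand), stood at 0.39, 0.28, 0.68, 0.35 and 0.42 FPKM in WT 1 to 5 and at 0.31, 0.5, 0.54, 0.84 and 0.3 FPKM in KO 1 to 5. KO 4 and WT 3 were highest, and the ranges overlapped. For Gzma the fit with no minimum gave a log2 difference of 0.10 with an SE of 0.16 (limma adjusted p = 0.788). Of 29 genes on the natural killer and cytotoxic list 5 were tested, and 0 passed. All 5 had a difference below 0, against 54.3% of all genes tested. Among them were Il2rb (-0.24, limma adjusted p = 0.242), Cd7 (-0.33, limma adjusted p = 0.329), Klrk1 (-0.19, limma adjusted p = 0.497, and -0.05 without KO 5) and Cxcr6 (-0.09, limma adjusted p = 0.759).

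Ccl5, a chemokine made by activated T cells and natural killer cells (chromosome 11, 83525778 to 83530518, minus strand), stood at 4.46, 2.72, 4.67, 2.62 and 3.68 FPKM in WT 1 to 5 and at 3.17, 5.33, 4.82, 3.73 and 3.2 FPKM in KO 1 to 5. High and low libraries occurred in both genotypes. Ccl5 differed by 0.15 on the log2 scale (SE 0.18, 95% interval -0.25 to 0.54, limma adjusted p = 0.669). With single libraries left out it ran from 0.05 without KO 2 (limma adjusted p = 0.912) to 0.23 without WT 3 (limma adjusted p = 0.461).

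Levels of the members over all 10 libraries ran in the order Igkc (23.3 FPKM), Ighm (6.47), Ccl5 (3.84), Cd79a (1.78), Nkg7 (1.02), Cd3g (0.761), Jchain (0.709), Cd3e (0.563), Gzma (0.461) and Ms4a1 (0.307). Igkc was above Ighm and Ccl5 above Cd79a in every library, and each other pair of neighbours in this order had overlapping ranges.

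Igkc and Jchain varied together across the 10 libraries (Pearson r = 0.939, permutation p = 5e-05, adjusted over 45 pairs 0.00225; Spearman rho = 0.891, permutation p = 0.00136, adjusted 0.0457). Without WT 1 and WT 2, the libraries farthest from the Igkc median, r was 0.88, and as deviations from the genotype means it was 0.896. Igkc and Ighm gave r = 0.887 (permutation p = 0.00184, adjusted 0.0414) and rho = 0.552 (permutation p = 0.106, adjusted 0.427). Without WT 1 and WT 2 their r was 0.592, and as deviations from the genotype means it was 0.888. Igkc and Cd79a gave r = 0.334 (permutation p = 0.349, adjusted 0.654) and rho = 0.274 (permutation p = 0.44, adjusted 0.765), with r = -0.0461 without WT 1 and WT 2 and 0.568 as deviations from the genotype means. Cd3e and Nkg7 gave rho = 0.869 (permutation p = 0.00203, adjusted 0.0457) and r = 0.746 (permutation p = 0.0117, adjusted 0.132). Their r was 0.728 without KO 3 and WT 1 and 0.876 as deviations from the genotype means. All values share library and depth.

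The genes whose levels followed Igkc most closely within genotypes were 1700021F05Rik (r of deviations 0.944), Prim2 (0.903) and Jchain (0.896), with Ighm in place 5 (0.888), among all genes tested. Tax1bp1 (0.943) and Abtb2 (0.94) were among the closest to Cd3g, and the closest to Nkg7 were P2ry13 (0.942), Fbxl19 (0.935) and Olfml3 (0.923). These are among the highest of 12247 correlations over 10 libraries and are given as a description.

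Among genes that act on lymphocytes or carry antibody, some passed. Of 12 tested lymphocyte chemokines and chemokine receptors, 3 fell and 0 rose, while 8.54% of all genes tested passed in either direction. Cxcl12, which holds B cell precursors and plasma cells in their niches, fell from 119 ± 14.4 to 86.6 ± 8 FPKM (SD, n = 5 each, log2 difference -0.45, SE 0.09, limma adjusted p = 0.0127). Ccl25, a chemokine that draws thymocytes and gut T cells, fell from 5.19 ± 0.909 to 3.06 ± 0.5 FPKM (SD, n = 5 each, log2 difference -0.68, limma adjusted p = 0.0136, and 0.0531 with the replicate number as a block). Ccl27a fell by 0.48 on the log2 scale (limma adjusted p = 0.0366), a call lost without any 1 of 7 libraries (WT 1, 2, 3 and 5 and KO 2, 4 and 5, highest adjusted p 0.0848) and with no minimum on the mean (0.0732). Ccl25 and Ccl27a overlap genes on the opposite strand, and reads from the pairs cannot be told apart. Cxcr3, a chemokine receptor of T cells, gave -0.34 (limma adjusted p = 0.153).

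Pigr, the receptor that carries polymeric IgA and IgM with the J chain across cells into bile, fell from 498.6 ± 23.1 to 381.5 ± 34.5 FPKM (SD, n = 5 each, log2 difference -0.39, SE 0.06, limma adjusted p = 0.00492). Every KO library, from 358.84 to 441.66 FPKM, was below every WT library, from 470.88 to 522.29 FPKM. Fcgr3, an IgG receptor of macrophages and natural killer cells, fell by 0.50 on the log2 scale (limma adjusted p = 0.0481), a call lost in 8 of the 10 repeats that left out 1 library (all but those without WT 5 or KO 3, highest adjusted p 0.102) and in 6 other settings, with adjusted p from 0.0592 to 0.0944. Of 8 tested genes of antibody transport and Fc receptors, these 2 fell and 0 rose, while 8.54% of all genes tested passed in either direction. Fcgr1 gave -0.33 (limma adjusted p = 0.0838) and Fcgr2b gave -0.15 (limma adjusted p = 0.148).

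Of 20 tested genes of antigen receptor signalling, 0 passed, with a median log2 difference of -0.07. Of the 20, 13 were below 0, against 54.3% of all genes tested, and the largest difference above 0 was that of Cd22 (0.25, limma adjusted p = 0.52). The genes with the smallest p were all below 0. Blnk, an adaptor of the B cell receptor, gave -0.32 (limma adjusted p = 0.248), Vav1 -0.18 (limma adjusted p = 0.276), Ptpn6 -0.14 (limma adjusted p = 0.287) and Btk -0.21 (limma adjusted p = 0.303). Of 4 tested survival cytokines and their receptors, 0 passed and 3 were below 0, Il18 (-0.38, limma adjusted p = 0.3) and Il2rg (-0.19, limma adjusted p = 0.529) among them. Il15ra, which made up 68.6% of the summed level of that list, gave 0.04 (limma adjusted p = 0.953).

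Some genes on the lists of other immune cells passed. Of all genes tested, 8.54% passed in either direction and 54.3% had a difference below 0. Of 13 pan-leukocyte genes 12 had a difference below 0, and 1, Laptm5, fell (-0.40, limma adjusted p = 0.0239, lost without WT 1, WT 2 or KO 1, highest adjusted p 0.0545). The summed level of that list ran from 55.99 to 70.04 FPKM in WT and from 44.75 to 64.22 FPKM in KO. Of 13 Kupffer cell genes, the resident macrophages of the liver, 5 fell and 0 rose, with summed levels from 331.1 to 375.8 FPKM in WT and from 232.4 to 329.8 FPKM in KO. Clec4f fell from 55.9 ± 4.74 to 39.1 ± 5.68 FPKM (SD, n = 5 each, limma adjusted p = 0.00861), C1qa by 0.46 (limma adjusted p = 0.0138) and Vsig4 by 0.43 (limma adjusted p = 0.0167) on the log2 scale. Csf1r and Folr2 fell by 0.37 and 0.58 (limma adjusted p = 0.0288 and 0.0363). Their calls were lost without any 1 of 6 and 7 libraries, with highest adjusted p of 0.0687 and 0.0821, and with no minimum on the mean (0.0566 and 0.0725).

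The MHC class II genes H2-Ab1, H2-Eb1 and H2-Aa, which B cells, dendritic cells and macrophages share, fell by 0.40, 0.42 and 0.40 on the log2 scale (limma adjusted p = 0.0286, 0.0464 and 0.0478). They were 3 of 5 tested on their list, while 8.54% of all genes tested passed. The summed level of that list ran from 157 to 200.5 FPKM in WT and from 98.04 to 154.4 FPKM in KO. Cd74 made up 58.3% of the sum and did not pass (log2 difference -0.38, limma adjusted p = 0.0793). Without Cd74 the sum ran from 63.2 to 85.21 FPKM in WT and from 41.99 to 59.58 FPKM in KO. The H2-Ab1 call was lost without any 1 of 5 libraries, and the H2-Eb1 and H2-Aa calls without any 1 of 9. The highest adjusted p were 0.0554, 0.0955 and 0.101. All 3 calls were also lost with no minimum on the mean (0.0585, 0.0909 and 0.0942). Of the hepatocyte list, 2 of 8 rose, Cps1 by 0.58 (limma adjusted p = 0.00338) and Ahsg by 0.38 on the log2 scale (limma adjusted p = 0.0431, and 0.163 after quantile normalization). FPKM is a share of each library, and the part of these shifts in the antibody and lymphocyte values was not tested. Of 11 sinusoidal endothelial genes and 4 neutrophil genes tested, 0 passed. Of 5 red cell genes 1 rose, Alas2 (0.60, limma adjusted p = 0.0444), while 4 were below 0 and the median was -0.30. Of 4 cholangiocyte genes 1 fell, Sox9 (-0.56, limma adjusted p = 0.0349), while 2 in all were below 0 and the median was -0.09. The Alas2 and Sox9 calls were lost without any 1 of 7 and 8 libraries, with highest adjusted p of 0.102 and 0.0776, and with no minimum on the mean (0.0877 and 0.0575). Of 2 platelet genes tested, 0 passed.

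Dntt, the terminal transferase that adds bases at joints of antibody and T cell receptor genes in lymphocyte precursors (chromosome 19, 41029275 to 41059525, plus strand), was the 1 tested gene on a precursor list and fell. It stood at 2.93, 2.28, 1.27, 2.64 and 1.55 FPKM in WT 1 to 5 and at 0.99, 0.48, 0.96, 0.26 and 0.74 FPKM in KO 1 to 5. The groups did not overlap, and the log2 difference was -1.15 with an SE of 0.23 (limma adjusted p = 0.0123, highest value 0.0342 when 1 library was left out). Rag1, Rag2 and Igll1, defining genes of such precursors, were listed at 0 in all libraries.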

How the data were processed

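The deposited table held FPKM, computed by the authors for each gene and library. Per the submitters' processing notes STAR, RSEM, R 4.0.2, DESeq, DESeq2 and mm10 were used, with no role given. The sources used here name no annotation release, strand setting or batch. The labels' protocols describe poly-A selection. The members and gene lists were chosen with earlier results of these data known. Genes of other cell types are named only where called, apart from Cela1 and Cd74.

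Values were analysed as log2(FPKM + 0.5) with limma 3.58.1 in R 4.3.3 (eBayes, trend and robust, genotype only, two-sided), for the 12247 genes whose mean reached 0.5 FPKM, with Benjamini-Hochberg adjustment over them. Of these, 488 were higher and 558 lower in KO. Single values were compared by exact permutation tests of 252 arrangements, two-sided, and pairs by 100000 resamples. No count model was applied to FPKM. Read totals were not analysed here. Relative depth came from low genes, of whose values 95.7% lay within 0.15 of a whole step, and ranged from 0.902 to 1.11. No 2 libraries were identical, with Spearman correlations across genes from 0.974 to 0.988. The fit was tested on simulated data. Named genes were the members, the constant chains, the 3 most abundant variable segments, Etnppl, by limma p up to 4 tested genes of each lymphoid or pathway list with any called gene, and the 3 genes most like Igkc, Cd3g and Nkg7. Not every gene under this rule is printed, and Cd79b, Prdm1, Irf4, Tnfrsf17, Trac, Cd2 and Lck were named after their values were seen. Coding sequences were aligned with Biopython 1.88 and figures drawn with matplotlib 3.10.9 in Python 3.11.15. Alternatives were other pseudocounts, minimums and scalings, library weights, a non-robust fit, a replicate block and each library left out. The antibody measures and their alternatives were added after seeing the data.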

Additional observations from a re-analysis of the deposited data

Results flagged for a closer look

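Some libraries stood apart from the other 4 of their genotype, judged by a gap to the nearest library that was more than 0.71 of the group's range (Dixon's test). Such gaps occurred in 11 of 156 groups searched, where chance at 1 in 20 gives 7.8.

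KO 5 was low for Ighm (2.94 FPKM, others 5.79 to 6.09), Iglc1 (0.0 FPKM, others 0.43 to 0.6), Klrk1 (0.4 FPKM, others 0.94 to 1.01), H2-Ab1 (14.22 FPKM, others 17.77 to 19.22) and the number of variable segments above 0 (24, others 32 to 35). KO 4 was high for Ighg2b (1.82 FPKM, others 0.23 to 0.66) and Tcf7 (2.63 FPKM, others 1.59 to 1.7). KO 3 was high for Cd3e (0.96 FPKM, others 0.36 to 0.52), and KO 1 was high for Pigr (441.7 FPKM, others 358.8 to 376.8). Among WT libraries, WT 1 was high for Ighg2c (2.2 FPKM, others 0.05 to 0.67) and WT 5 was low for Ighg3 (0.05 FPKM, others 0.21 to 0.26).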

How the results depend on the processing

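The members' results were recomputed in 21 other settings. Of 164 member and setting combinations, 160 kept their sign and their side of the threshold, 1 passed (Nkg7 without KO 3) and 3 changed sign. Members called numbered 0 to 1 with each library left out and 0 in the other settings. Signs turned for Cd79a (-0.0187 to 0.169), Cd3e (-0.187 to 0.00438), Ighg2b (-0.439 to 0.0893), Iglc2 (-0.196 to 0.277) and Iglc3 (-0.169 to 0.233) with 1 library left out, and for Iglc2 with library weights (-0.00132).

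Over all genes, 488 were higher and 558 lower. With no minimum these were 294 and 370, with the replicate block 230 and 321, and with each library left out 259 to 456 and 317 to 544. Same-numbered libraries did not deviate together (correlations from -0.21 to 0.21), and 2 WT libraries correlated best with their own number. The labels do not say whether the numbers pair libraries. The minimum keeps Ms4a1 and Gzma out of the test, and values near 0.5 FPKM rest on few fragments.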
